A study of Mus musculus with 6 samples.

Results

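*C1qa*, *C1qb*, and *C1qc* encode the 3 chains of C1q, the recognition molecule of the classical complement pathway. They were taken by gene symbol from a table of 12436 genes and all 3 were found. The data are single-cell RNA-seq of tibialis anterior muscle (TAM), in which each captured RNA molecule carries a unique molecular identifier (UMI). All mice were males of 3 to 5 months on a B6;129 background with the cell cycle reporter allele Gt(ROSA)26Sor<tm1(Fucci2aR)Jkn, and per the study's methods they carried no Cre driver. Hypothyroid mice received an iodine-deficient diet with 0.15% propylthiouracil (PTU), a drug that blocks thyroid hormone synthesis, and control mice a matched diet without it. Both diets started 3 weeks before cardiotoxin (50 μg/ml), a venom toxin that destroys muscle fibers, was injected into the right TAM, and muscles were taken at 0 (uninjured), 5, or 14 days after injury (dpi). Cells of 3 mice were pooled per library, and red blood cells and dead cells were removed before capture. Each combination of diet and day gave 1 library (6 in all), so no difference between conditions was tested, and intervals below are 95% intervals that cover counting error alone. Diet cannot be told apart from library, and the labels give the day as the batch, so day and batch cannot be told apart either.

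C1q is assembled from the 3 chains, each of which has a collagen-like stalk and a globular head. The heads bind antibody complexes, pentraxins, and dying cells, and the stalks carry the proteases C1r and C1s, which cleave C4 and C2. Unlike most complement proteins, which come from the liver, C1q is made mainly by tissue macrophages and some dendritic cells, and its chains are widely used as markers of tissue macrophages rather than of blood monocytes. In injured muscle, macrophages clear debris and then take part in repair, and C1q also opsonizes dying cells for uptake.

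The 3 genes lie side by side on chromosome 4, all on the minus strand, within 18675 bp of mm39. *C1qb* (ENSMUSG00000036905.9) spans 136607440 to 136613498, *C1qc* (ENSMUSG00000036896.6) spans 136617115 to 136620376, and *C1qa* (ENSMUSG00000036887.6) spans 136623228 to 136626114. Since the chains moved together across cell types, as described below, the sequences just upstream of their starts are shown. RefSeq promoter entries (GRCm38.p6) matched 2 of the 3 members. The *C1qb* sequence is chr4:136886201-136886450 and the *C1qc* sequence is chr4:136893066-136893164, both written 5′ to 3′ on the minus strand, with GAGGAA or its reverse complement TTCCTC in capitals. GAGGAA is the core bound by ETS factors such as PU.1 (*Spi1*), a regulator of myeloid genes.
C1qb: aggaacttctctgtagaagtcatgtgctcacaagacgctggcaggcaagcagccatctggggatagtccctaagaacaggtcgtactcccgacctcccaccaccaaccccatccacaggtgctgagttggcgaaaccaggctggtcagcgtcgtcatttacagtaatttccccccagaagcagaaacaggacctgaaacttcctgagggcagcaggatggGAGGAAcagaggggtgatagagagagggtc
C1qc: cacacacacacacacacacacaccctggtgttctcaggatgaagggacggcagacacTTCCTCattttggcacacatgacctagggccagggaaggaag
The *C1qb* sequence ends at the RefSeq start, and GAGGAA lay 30 to 25 bases before it. The *C1qc* sequence ends 151 bases before the RefSeq start, and the motif lay on the opposite strand, 193 to 188 bases before that start. Both strands of the 250 bases before the start were searched, and 23.3% of 32851 promoters held GAGGAA. An IRF repeat (in 2.98% of promoters) and an AP-1 site (TGANTCA, in 6.75%) were not found in either window. A match describes letters and not a binding site.

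The 6 libraries held 528 to 3294 cells and 2283954 to 23497545 UMIs, with medians between 3634 and 8055 UMIs per cell, the deepest being hypothyroid 5 dpi. Only the first run of cells listed for each library was used (11207 cells), because 2 of the 7 later runs copy cells of other conditions and the origin of the rest is not known, and 12 barcodes occurred in more than 1 library. Cells were clustered without the C1q genes and named from other marker genes. Of the 11207 cells, 1613 fell into monocyte/macrophage-like clusters, called the myeloid class below. The largest (838 cells) had 11 of 12 markers raised, among them *Lyz2*, *Csf1r*, and *Cd68*. The others (722 and 53 cells) had 6 and 5 raised, such as *Ctss* and *Tyrobp*, and none of the former genes. Within the class, 903 cells in 10 of 20 subclusters carried macrophage markers (*Adgre1*, *Mrc1*, *Trem2*, *Apoe*, *Pf4*, and others) and are called macrophage-like, and the rest of the class held monocyte-like, dendritic-like, and unnamed cells. Levels are given as CPM, the UMIs of a gene over all UMIs of the same pool of cells, scaled to a fixed total, and "C1q" stands for the 3 chains summed. The 3′ kit counts RNA ends and its yield for each chain is unknown, so chains were compared between libraries and not with each other as RNA amounts.

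C1q RNA was found after injury and mostly in macrophage-like cells. Control muscle held 1 C1q UMI among 5932538 at 0 dpi, 5480 at 5 dpi, and 2117 at 14 dpi, or 0.169, 355, and 129 CPM of the whole library. Hypothyroid muscle held 0 at 0 dpi (an upper limit of 1.31 CPM at 3 counts), then 43949 at 5 dpi and 9610 at 14 dpi, or 1870.4 and 732.5 CPM. Both diets were thus highest at 5 dpi. The hypothyroid library was higher by 5.27-fold at 5 dpi (5.12 to 5.42) and 5.70-fold at 14 dpi (5.44 to 5.98). Macrophage-like cells held 90.7% and 79.4% of all C1q UMIs in control muscle at 5 and 14 dpi and 94.9% and 91.6% in hypothyroid muscle. In a whole library, more C1q-bearing cells and more C1q per cell cannot be told apart, so both were measured below.

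**Figure D1:**
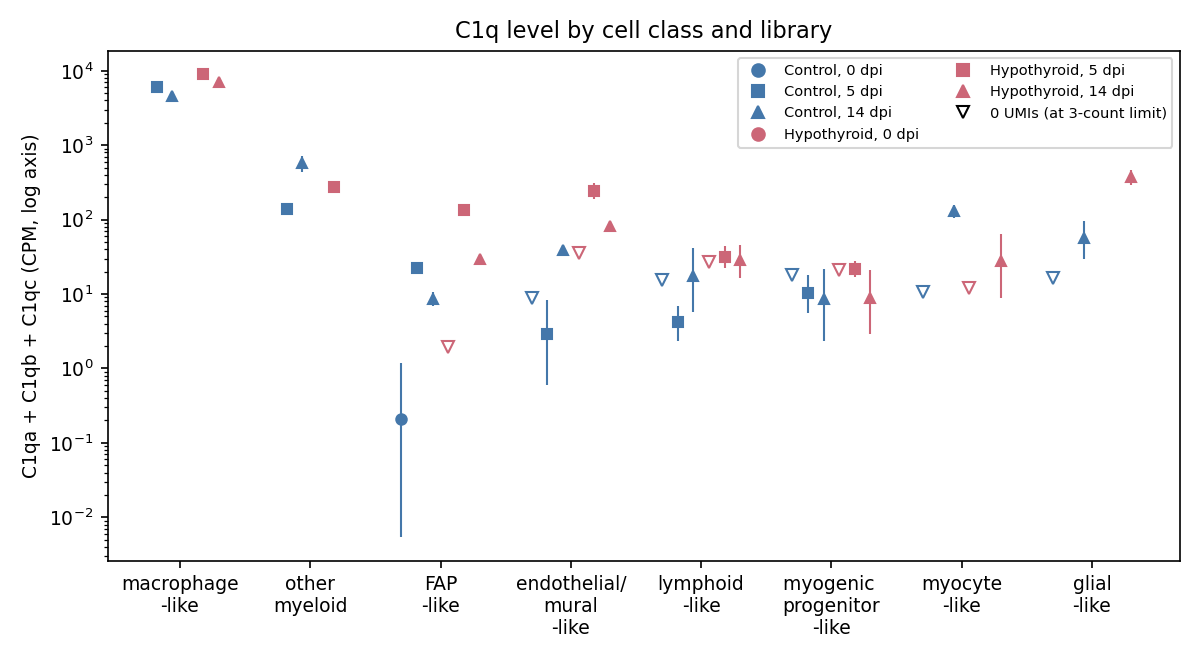
C1q level (CPM, log axis) in each cell class and library, with exact Poisson 95% intervals. Symbols give the day, colors the diet, and open triangles mark a class with 0 UMIs at the level that 3 counts would give; pools under 20 cells are left out. Macrophage-like cells sit between 4622 and 8997 CPM, and no other pool drawn lies above 569 CPM.

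Uninjured muscle gave almost no myeloid cells to measure. The class held 5 control and 9 hypothyroid cells at 0 dpi, with 0 C1q UMIs in both (upper limits of 77.5 and 36.5 CPM at 3 counts). Of the 12 myeloid markers, *Csf1r*, the macrophage growth factor receptor, had 6 and 5 UMIs in the whole control and hypothyroid libraries, and *Adgre1*, which encodes F4/80, had 1 and 7. *Lyz2*, the lysozyme of monocytes and macrophages, had 228 and 577. The resident macrophages of uninjured muscle were therefore not represented in numbers that allow a statement on their C1q, and no ratio of diets was formed at 0 dpi.

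In the myeloid class as a whole, C1q differed between diets far more at 5 than at 14 dpi. The level was 1615 CPM (1571 to 1659) in 610 control cells and 7272 CPM (7203 to 7342) in 719 hypothyroid cells at 5 dpi, a 4.50-fold difference (4.38 to 4.64). All 3 chains were over 2-fold higher, *C1qa* by 4.06-fold, *C1qb* by 5.93-fold, and *C1qc* by 3.41-fold. Of 5049 genes measured (100 UMIs or more in the higher group), 8.73% were at least 2-fold higher in the same comparison. At 14 dpi the levels were 3642 CPM (3473 to 3817) in 115 control cells and 6579 CPM (6445 to 6715) in 155 hypothyroid cells, a ratio of 1.81 (1.72 to 1.90). No chain passed 2-fold, beside 8.23% of 1385 genes at least 2-fold higher. From 5 to 14 dpi the class level was 2.26-fold higher (2.14 to 2.38) in control muscle and stood at 0.905 (0.884 to 0.925) of its 5 dpi value in hypothyroid muscle, a difference between diets that was not tested. The hypothyroid ratio was above 1 when log2(CPM + 1) was averaged over cells (2.89, control 60.4) or all cell columns were used (1.10, control 3.67). With all cell columns, which mix conditions, the 14 dpi ratio of diets was 0.982 (0.956 to 1.008).

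The makeup of the class moved with these levels. At 5 dpi macrophage-like cells were 123 of 610 myeloid cells in control muscle (20.2%, 17.1 to 23.6) and 548 of 719 in hypothyroid muscle (76.2%, 72.9 to 79.3). Of the 20 genes that most set macrophage-like cells apart, 2 differed at least 2-fold between diets at 5 dpi. In macrophage-like cells, 5.73% of all genes were then at least 2-fold higher and 2.89% lower. At 14 dpi there were 90 macrophage-like cells among 115 control and 140 among 155 hypothyroid myeloid cells. On that day 8 of those 20 genes differed, beside 9.93% of all genes higher and 2.46% lower, so its shares were not compared. The other myeloid cells held little C1q, at 139 CPM (487 cells) and 271 CPM (171 cells) in control and hypothyroid muscle at 5 dpi, and macrophage-like cells of the control library stood 43.7-fold above them. At 14 dpi the other myeloid cells had 569 CPM (25 cells) in control and 2498 CPM (15 cells) in hypothyroid muscle.

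Within macrophage-like cells the diets lay much closer than in the whole class at 5 dpi, and only somewhat closer at 14 dpi. C1q was 6069 CPM (5902 to 6240.3) in 123 control cells and 8997 CPM (8911 to 9084) in 548 hypothyroid cells at 5 dpi, a ratio of 1.48 (1.44 to 1.53). At 14 dpi it was 4622 CPM (4404 to 4849) in 90 control cells and 6993 CPM (6848 to 7140.4) in 140 hypothyroid cells, a ratio of 1.51 (1.44 to 1.60). In order of level, hypothyroid 5 dpi came first, followed by hypothyroid 14 dpi, control 5 dpi, and control 14 dpi, and no neighboring intervals overlapped. The median ratio of hypothyroid over control was taken over all genes measured in the same cells. It was 1.10 at 5 dpi (2287 genes) and 1.17 at 14 dpi (1218 genes), and the C1q ratio stood above it on both days. That median leans toward genes higher in hypothyroid cells, because their pools held more UMIs. It therefore does not show a shift that most genes shared. Under median-ratio scaling the C1q ratio was 1.63 at 5 dpi and 1.58 at 14 dpi, above the unscaled values. No chain passed 2-fold at either day. At 5 and 14 dpi, 5.73% and 9.93% of genes were at least 2-fold higher and 2.89% and 2.46% lower. These shares have the same lean toward genes higher in hypothyroid cells. The level in macrophage-like cells at 14 dpi was 0.762 (0.720 to 0.805) of that at 5 dpi in control and 0.777 (0.760 to 0.795) in hypothyroid muscle. No chain was 2-fold lower over this time, while 12.8% and 4.94% of genes were.

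The cells behind these values were not the same mix on both days. At 5 dpi, subclusters 0, 1, and 6 held most control macrophage-like cells (32, 27, and 20) and subclusters 0, 2, and 1 most hypothyroid ones (139, 136, and 135). At 14 dpi, subcluster 3 held 66 of 90 control and 62 of 140 hypothyroid cells, and its genes raised over the other myeloid cells were those of muscle fibers, such as *Mb* and *Ckm*. Leaving out subclusters that carried markers of another cell class gave 1.34 (94 control and 501 hypothyroid cells) at 5 dpi and 4.14 at 14 dpi, the latter from 6 control and 46 hypothyroid cells. Taking instead the first-level cluster in which 11 of 12 myeloid markers were raised gave 1.14 at 5 dpi and 1.17 at 14 dpi. The direction held under both, and the size depended on which cells were called macrophage-like. With all cell columns, which mix conditions, the ratio was 1.53 at 5 dpi and 0.914 at 14 dpi, so the direction at 14 dpi was reversed.

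The chains did not share the difference equally at 5 dpi. In control macrophage-like cells *C1qa* had 2233 CPM (2132 to 2337), against 2997 CPM (2948 to 3048) in hypothyroid ones, a ratio of 1.34 (1.28 to 1.41). *C1qb* was 2048 CPM (1951 to 2149) and 4007 CPM (3949 to 4065), a ratio of 1.96 (1.86 to 2.06). *C1qc* was 1788 CPM (1698 to 1882) and 1993 CPM (1952 to 2034), a ratio of 1.11 (1.05 to 1.18). The *C1qb* ratio thus stood apart from those of its neighbors, and the direction of *C1qc* was not kept under other choices of cells, with 0.866 in the first-level cluster and 0.997 without subclusters that carried markers of another class. At 14 dpi the ratios were 1.36 (1.24 to 1.49) for *C1qa*, 1.57 (1.46 to 1.70) for *C1qb*, and 1.61 (1.44 to 1.80) for *C1qc*, with control levels of 1507, 2073, and 1042 CPM and hypothyroid levels of 2051, 3264, and 1678 CPM. From 5 to 14 dpi, the ratio of control *C1qb* was 1.01 (0.928 to 1.10), that of *C1qa* 0.675, and that of *C1qc* 0.583, and in hypothyroid cells the values were 0.684, 0.815, and 0.842 for *C1qa*, *C1qb*, and *C1qc*.

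The same pattern appears as a shift in the share of each chain in control 5 dpi cells. There, *C1qa*, *C1qb*, and *C1qc* made up 36.8%, 33.7%, and 29.5% of C1q UMIs. The other 3 libraries had *C1qa* at 29.3 to 33.3%, *C1qb* at 44.5 to 46.7%, and *C1qc* at 22.1 to 24.0%. The ratio of *C1qa* to *C1qb* UMIs was 1.09 (1.02 to 1.17) in control 5 dpi cells, 0.727 (0.650 to 0.812) in control 14 dpi cells, 0.748 (0.732 to 0.765) in hypothyroid 5 dpi cells, and 0.628 (0.598 to 0.660) in hypothyroid 14 dpi cells. The control 5 dpi library stood above the others, the hypothyroid 14 dpi library below them, and the intervals of the remaining 2 overlapped.

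**Figure D2:**
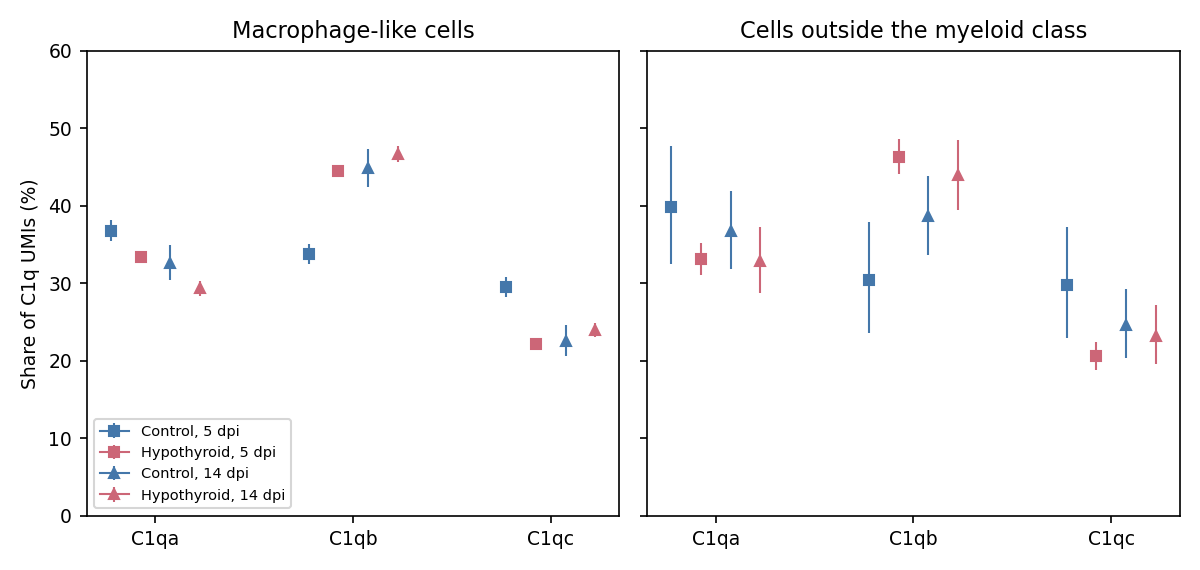
Share of C1q UMIs (%) that came from each chain, with exact 95% intervals, in macrophage-like cells (left) and in cells outside the myeloid class (right) of the 4 libraries after injury. The control 5 dpi library has the lowest *C1qb* share in both panels, 33.7% and 30.4%, the second resting largely on 3 cells with myeloid markers.

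The shift had the same direction cell by cell, and in cells outside the myeloid class that carried myeloid markers. In both, the control 5 dpi interval overlapped that of control 14 dpi and lay apart from those of the hypothyroid libraries. Among macrophage-like cells with at least 20 C1q UMIs, *C1qa* exceeded *C1qb* in 36 of 60 control 5 dpi cells (46.5 to 72.4%), 11 of 35 control 14 dpi cells (31.4%, 16.8 to 49.3), 94 of 407 hypothyroid 5 dpi cells (23.1%, 19.1 to 27.5), and 14 of 95 hypothyroid 14 dpi cells (14.7%, 8.30 to 23.5). In cells outside the myeloid class the *C1qa* to *C1qb* ratio was 1.31 (0.899 to 1.93), 0.951 (0.747 to 1.21), 0.714 (0.644 to 0.791), and 0.748 (0.605 to 0.922) in the same order of libraries. Both sets of cells had their highest ratio in the control 5 dpi library, although in the second set its interval overlapped those of both 14 dpi libraries and 3 cells with 6 or more myeloid markers held 124 of its 168 C1q UMIs. In outside cells with 4 or more myeloid markers the *C1qb* share was 28.15% (20.75 to 36.53) in control 5 dpi and 38.17% (32.26 to 44.35) in control 14 dpi muscle. In hypothyroid muscle it was 45.4% (43.02 to 47.79) at 5 dpi and 44.27% (38.78 to 49.88) at 14 dpi. In outside cells with under 4 myeloid markers the *C1qb* share was 39.4% (22.9 to 57.9) in control 5 dpi and 39.8% (30.5 to 49.7) in control 14 dpi muscle, so the shift was not detectable there at this depth.

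In single macrophage-like cells C1q ranged from 0 to 395 UMIs. Control 5 dpi cells held a median of 4732 CPM (lowest 0, highest 36044), control 14 dpi cells 4130.2 CPM (0 to 18745), hypothyroid 5 dpi cells 8745 CPM (0 to 33479), and hypothyroid 14 dpi cells 5943 CPM (0 to 39356). The distributions overlapped widely in all 4 libraries. Cells without C1q were 34 of 123 in control 5 dpi, 17 of 90 in control 14 dpi, 32 of 548 in hypothyroid 5 dpi, and 3 of 140 in hypothyroid 14 dpi muscle. At least 10 C1q UMIs were found in 69, 51, 454, and 106 cells in the same order, and all 3 chains in 76, 54, 462, and 112 cells. The richest 10% of cells held 44.7% of the C1q UMIs of control 5 dpi macrophage-like cells and 31.5% of those of hypothyroid 5 dpi cells.

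**Figure D3:**
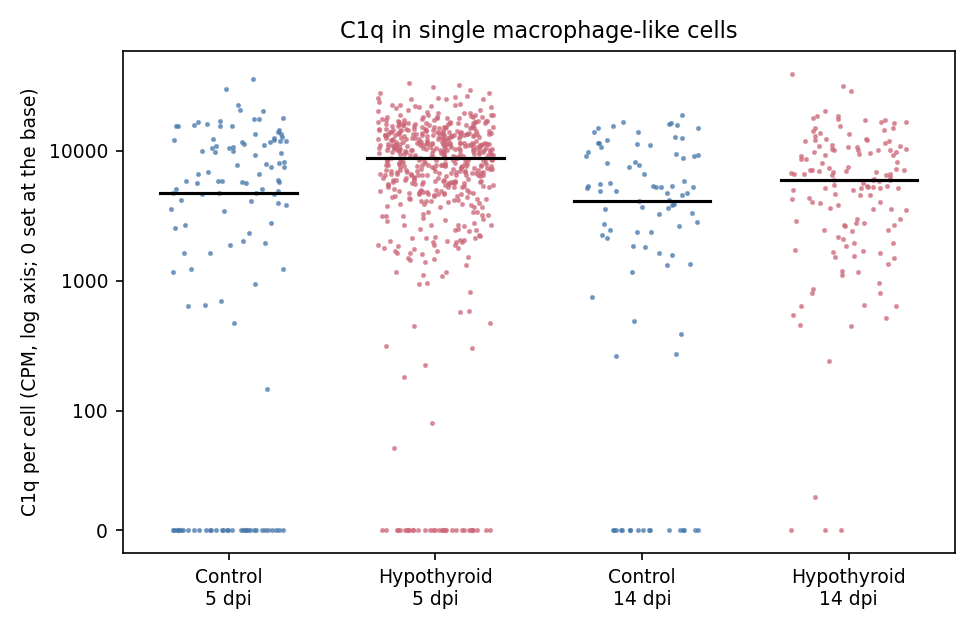
C1q (CPM, log axis) in each macrophage-like cell of the 4 libraries after injury. Each point is a cell, black lines are medians (4732, 8745, 4130.2, and 5943 CPM from left to right), and cells without a C1q UMI are drawn at the base of the axis.

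Detection depends on depth, so each cell was thinned to 1000 UMIs and shallower cells were left out. A C1q UMI was then found in 71.7% (62.4 to 79.8) of 113 control 5 dpi and 93.9% (91.4 to 95.8) of 507 hypothyroid 5 dpi macrophage-like cells, and in 75.9% (65.3 to 84.6) of 83 control 14 dpi and 91.0% (84.8 to 95.3) of 133 hypothyroid 14 dpi cells. Without thinning the values were 72.4%, 94.2%, 81.1%, and 97.9%. The hypothyroid shares were higher on both days by more than the counting error. Lymphoid-like cells, which are not known to make C1q, gave the background, with 0.478% of 1046 control 5 dpi, 5.71% of 280 hypothyroid 5 dpi, 3.03% of 99 control 14 dpi, and 2.80% of 143 hypothyroid 14 dpi cells. Their median depths were 2409 to 2591 UMIs at 5 dpi and 2089 to 3386 at 14 dpi, against 5155 and 6423 UMIs at 5 dpi and 3832 and 6779.5 at 14 dpi in macrophage-like cells. In the whole myeloid class the thinned share was 15.6% (12.7 to 18.8) in control and 73.4% (69.9 to 76.7) in hypothyroid muscle at 5 dpi, and 64.4% and 86.9% at 14 dpi.

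C1q levels followed the macrophage identity of the 20 myeloid subclusters. The 10 macrophage-like subclusters lay between 4226 and 15534 CPM, and the other 10 at or below 1338 CPM. The highest was subcluster 17, with 19 cells at 15534 CPM (14551 to 16567), whose leading genes *F13a1*, *Cbr2*, *Clec10a*, *Cx3cr1*, and *Mrc1* are known from resident macrophages, and 16 of its 19 cells came from 14 dpi. Subcluster 1 followed with 184 cells at 13485 CPM, led by the chemokine *Ccl4*, *Aif1*, and *Ms4a7*, and every cell in it had a C1q UMI. Cycling cells (subcluster 13, led over the other myeloid cells by *Birc5*, *Ccna2*, and *Cdk1*) stood at 9427 CPM. The cytokine-rich subcluster 2 (*Il10*, *Il1rn*) had 8253 CPM, subcluster 6 with stress genes (*Hspa1a*, *Hspa1b*) 8238 CPM, and subcluster 0, led by *Mmp12*, *Atp6v0d2*, and *Gpnmb*, 7812 CPM.

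The 4 lowest macrophage-like subclusters were those with RNA of another cell class. Subcluster 3 (muscle fiber genes) stood at 5159 CPM, subcluster 12 (myogenic genes such as *Cdh15*) at 5113 CPM, subcluster 16 (genes of fibro-adipogenic progenitors, FAPs, such as *Dcn*) at 4744 CPM, and subcluster 15 (endothelial genes such as *Cldn5*) at 4226 CPM. Subcluster 17 also carried muscle fiber genes and was the exception to this order. Median depth in subclusters 12 and 16 was 20224 and 14652 UMIs, against 2728 to 11214 in the remaining macrophage-like subclusters. Doublets were not removed, and their part in these levels was not tested.

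Monocyte-like and dendritic-like cells held far less C1q. Subcluster 8, with the monocyte genes *Vcan* and *Chil3*, had 373 CPM (324 to 427), and 22.1% of its 95 cells had a C1q UMI. Within it, the 53 control cells of 5 dpi had 54.4 CPM of C1q and the 25 hypothyroid cells had 993 CPM. At 14 dpi the order was the other way, the 7 control cells having 610 CPM and the 6 hypothyroid ones 375 CPM, with an interval of the ratio (0.615, 0.341 to 1.10) that included 1. The dendritic-like subclusters 7 (*Xcr1*, *Clec9a*) and 9 (*Fscn1*, *Il12b*) had 6.67 and 2.27 CPM. Subcluster 10, in which dendritic and T cell genes met, had 1338 CPM, carried by 12 of its 57 cells, and subclusters 14 (*S100a8*, *S100a9*) and 19 had 0 UMIs. Subcluster 11 passed the monocyte list but was led by *Siglech* and *Ccr9*, genes of plasmacytoid dendritic cells, so it was left unnamed, and it stood at 71.4 CPM.

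**Figure D4:**
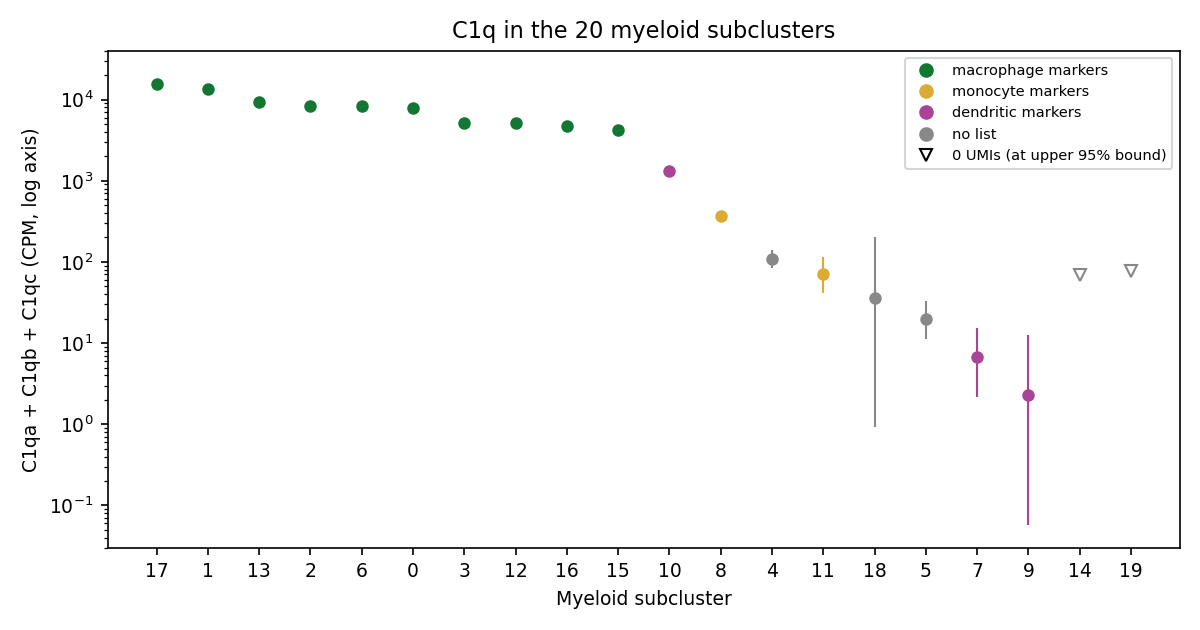
C1q level (CPM, log axis) of the 20 myeloid subclusters over all libraries, with exact Poisson 95% intervals, colored by the marker list they carried. Subclusters 14 and 19 had 0 UMIs and are drawn at the upper bound of their interval. The 10 subclusters with macrophage markers lie at 4226 CPM or more and no other lies above 1338 CPM.

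Within single subclusters with at least 5 cells of each diet, hypothyroid cells had more summed C1q in each macrophage-like one that could be compared. At 5 dpi the ratio was 1.42 (1.35 to 1.49) in subcluster 0, 1.23 (1.17 to 1.29) in subcluster 1, 1.34 in subcluster 2, 2.72 (2.37 to 3.12) in subcluster 6, 1.70 in subcluster 12, 1.13 (1.02 to 1.25) in subcluster 13, and 5.00 (3.46 to 7.40) in the 5 and 7 cells of subcluster 3. In subcluster 16, 5 control cells held 0 C1q UMIs while 15 hypothyroid cells stood at 5711 CPM. At 14 dpi the ratio was 1.38 (1.27 to 1.49) in subcluster 3, 1.61 (1.31 to 2.01) in subcluster 15, and 1.38 (1.20 to 1.59) in subcluster 17. The lean toward *C1qb* at 5 dpi was present in subclusters 0, 1, 6, and 12, with *C1qb* ratios of 1.91, 1.62, 3.47, and 2.26 against *C1qa* ratios of 1.20, 1.17, 2.31, and 1.55. Subcluster 13 went the other way, with 1.17 (0.993 to 1.38) for *C1qb* and 1.68 (1.36 to 2.1) for *C1qa*.

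The partners of C1q in the C1 complex had their higher levels in other cells. Of 14 classical pathway and C1 partner genes, 10 were measured in the files. In control and hypothyroid macrophage-like cells at 5 dpi, *C1ra* had 4.89 and 3.24 CPM and *C1s1* 13.4 and 4.32 CPM. In FAP-like cells they had 106 and 116 CPM (*C1ra*) and 230 and 182 CPM (*C1s1*). The C1 inhibitor gene *Serping1* likewise had 747 and 663 CPM in FAP-like and 40.3 and 23.9 CPM in macrophage-like cells, and *C3*, the central component of complement, had 409 and 364 CPM against 19.5 and 26.1 CPM. The C1q chains and the protease genes were thus highest in different classes at 5 dpi in both diets. At 5 dpi *C3* alone of this list had 100 UMIs in the macrophage-like pool where its level was higher, with a ratio of 1.34 (0.790 to 2.41).

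Genes for C1q binding and uptake differed less than 2-fold between diets in macrophage-like cells. Of 12 listed, 11 were in the files and 7 were measured at 5 dpi, of which 0 passed 2-fold in either direction, with a median ratio of 0.872. The ratio farthest from 1 was that of *Calr*, whose product calreticulin binds the collagen-like stalk, with 926 CPM in control cells, 544 CPM in hypothyroid cells, and a ratio of 0.588 (0.542 to 0.638). *Cd93* had 186 and 138 CPM in macrophage-like cells and 1509 and 968 CPM in endothelial/mural-like cells, and *Lrp1* had 263 and 302 CPM in macrophage-like cells. At 14 dpi 6 genes were measured, 0 passed 2-fold, and the median ratio was 1.23.

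Of 9 transcription factors known to act on macrophage genes, 5 were measured in macrophage-like cells at 5 dpi. *Spi1* had 364 and 376 CPM (ratio 1.03, 0.913 to 1.17), and the interval included 1. *Irf8*, a factor of monocyte and dendritic development, was lower in hypothyroid cells at 68.6 against 282 CPM (ratio 0.243), and *Cebpa* at 58.9 against 125 CPM (ratio 0.473), where 2.89% of genes were at least 2-fold lower. *Spi1* was also present in the other myeloid cells, with 313 and 192 CPM at 5 dpi. At 14 dpi 3 of the 9 were measured, among them *Spi1* (ratio 1.07) and *Cebpb* (ratio 0.70), and 0 of 3 passed 2-fold.

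Among macrophage genes, those of the resident and repair list leaned the same way as C1q at 5 dpi. Of 15 listed, 10 were measured in macrophage-like cells, with a median ratio of 1.56, 1 at least 2-fold higher (beside 5.73% of all genes), and 0 at least 2-fold lower. *Apoe*, the lipid carrier of tissue macrophages, had 10002 and 22419.8 CPM (ratio 2.24), *Trem2*, a lipid receptor, 959 and 1526 CPM (ratio 1.59), and *Pf4* 1028 and 1847 CPM (ratio 1.80). *Spp1*, which encodes osteopontin, went the other way with 13665 and 7266 CPM (ratio 0.532). At 14 dpi the median over 10 genes was 1.69, 4 were at least 2-fold higher, namely *Gpnmb* (8.31), *Fabp5* (5.18), *Spp1* (4.96), and *Trem2* (3.65), and 0 were at least 2-fold lower. Of all genes measured, 9.93% were at least 2-fold higher and 2.46% lower. The medians and shares carry the lean toward genes higher in hypothyroid cells that is given above.

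The inflammatory list was near 1 at 5 dpi and above it at 14 dpi, and the antigen presentation list lay below 1 on both days. Of 10 monocyte and inflammatory genes, 6 were measured in macrophage-like cells at 5 dpi with a median ratio of 1.02, and *Plac8*, a monocyte gene, was lower in hypothyroid cells (203 and 25.2 CPM, ratio 0.125), beside 2.89% of all genes at least 2-fold lower. At 14 dpi 4 were measured with a median of 1.64, and *Il1b* (2.76) and *Thbs1* (2.40) were at least 2-fold higher, beside 9.93% of all genes. Of 10 MHC class II and dendritic cell genes, 4 were measured on each day, with medians of 0.684 and 0.661 and 0 past 2-fold. These same 4 genes (*Cd74*, *H2-Aa*, *H2-Ab1*, and *H2-Eb1*) were higher at 14 than at 5 dpi in macrophage-like cells, by 4.50- to 6.63-fold in control and 5.36- to 5.59-fold in hypothyroid muscle, while C1q was lower. At least 2-fold higher at 14 dpi were 8.21% of genes in control and 4.78% in hypothyroid macrophage-like cells.

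Cells outside the myeloid class held 168 and 370 C1q UMIs in control muscle at 5 and 14 dpi and 1946 and 487 in hypothyroid muscle, or 3.07%, 17.5%, 4.43%, and 5.07% of each library's C1q UMIs. Their levels were 13.8 CPM (11.8 to 16.1) and 23.1 CPM (20.8 to 25.6) in control and 109.8 CPM (105.0 to 114.8) and 41.5 CPM (37.9 to 45.4) in hypothyroid muscle. The myeloid class stood 117-fold and 157-fold above them in control and 66.2-fold and 158-fold in hypothyroid muscle. The ratio of hypothyroid over control in these cells was 7.94 (6.78 to 9.35) at 5 dpi and 1.79 (1.56 to 2.06) at 14 dpi, where 2.94% and 1.6% of genes were at least 2-fold higher.

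Most of this RNA sat in a few cells. At least 10 C1q UMIs were found in 3, 8, 24, and 7 cells outside the class (control 5 and 14 dpi, hypothyroid 5 and 14 dpi), and these 42 cells held 73.8%, 65.7%, 86.5%, and 63.5% of the UMIs outside it. All 42 had UMIs of at least 4 of the 12 myeloid markers and UMIs of all 3 chains, with 11 to 210 C1q UMIs each. They comprised 31 FAP-like, 6 endothelial/mural-like, 2 glial-like, 2 myocyte-like, and 1 myogenic progenitor-like cell, and no lymphoid-like cell. Their median depth was 26617 UMIs and 24 of them were among the 5% of cells with the most UMIs in their library. Doublets were not removed, and their part in these values was not tested.

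**Figure D5:**
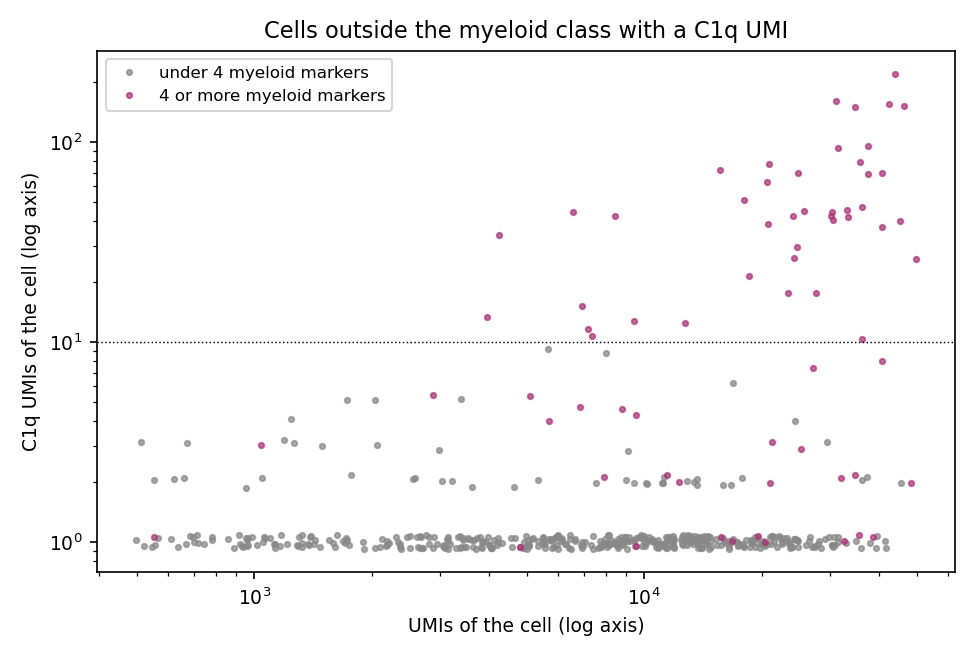
C1q UMIs against all UMIs (log axes) of each cell outside the myeloid class with a C1q UMI, with C1q values spread slightly along the axis so that cells do not hide each other. The 42 cells with at least 10 C1q UMIs, above the dotted line, all carry 4 or more myeloid markers, and most other cells hold a single C1q UMI.

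Without cells that had 4 or more myeloid markers, a low level of C1q remained outside the class after injury. It was 2.99 CPM (2.06 to 4.19) in control and 14.1 CPM (12.4 to 16.1) in hypothyroid muscle at 5 dpi, and 6.84 CPM (5.61 to 8.26) and 14.3 CPM (12.2 to 16.6) at 14 dpi, so that macrophage-like cells stood 491- to 2032-fold above it. The ratio of hypothyroid over control was 4.73 (3.28 to 7.04) at 5 dpi, beside 5.27 for the whole library, and 2.08 (1.62 to 2.68) at 14 dpi, beside 5.70. In hypothyroid muscle at 5 dpi the level was 12.7 CPM (10.8 to 14.8) in FAP-like, 12.9 CPM (9.04 to 17.9) in myogenic progenitor-like, 18.4 CPM (5.96 to 42.8) in endothelial/mural-like, and 32.2 CPM (22.3 to 45.0) in lymphoid-like cells. The lymphoid-like level lay above that of FAP-like and myogenic progenitor-like cells, whose intervals overlapped. CPM divides by depth, and depth differed between these classes. Over all libraries, median UMIs were 1769 to 3000 in lymphoid-like, 3318 to 15878 in FAP-like, and 7205 in myogenic progenitor-like clusters. The part of depth in this order was not tested.

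Set against macrophage-like cells of the same library, this level was 0.0253 to 0.25% of their level for the 3 chains over the 4 libraries. *Lyz2* showed a like range, 0.0603 to 0.264%, but it is among the markers that chose the cells. *Apoe*, which is not, ranged from 0.396 to 2.72%, and *Ctsb*, a protease of lysosomes in many cell types, from 3.67 to 10.2%. In hypothyroid muscle at 5 dpi *C1qa*, *C1qb*, and *C1qc* gave 0.121%, 0.189%, and 0.148%. Among the genes given here, the C1q chains thus lay, with *Lyz2*, at the low end. Free RNA and C1q made by these cells were not told apart by any test.

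Genes whose level followed C1q most closely differed with the measure. Over 38 pools of at least 20 cells (a class in a library), the highest Pearson correlations of log2(CPM + 1) with summed C1q were *Lyz2* (0.968), *Ms4a7* (0.941), *Pf4* (0.925), *Trem2* (0.912), *Adgre1* (0.904), *Lst1* (0.903), *Cd68* (0.898), *Ccl9* (0.895), *Cd300c2* (0.888), and *Csf1r* (0.886). Pools share libraries, and most of the range is that between macrophages and all other cells. *Lyz2*, *Adgre1*, *Cd68*, and *Csf1r* are also among the markers that named the myeloid class. *Ms4a7*, *Pf4*, *Trem2*, *Adgre1*, and *Csf1r* are among those that named macrophage-like subclusters. Their high correlations over pools were therefore partly set by how the cells were named. Over thinned myeloid cells within each of the 4 libraries after injury (101 to 672 cells), the highest mean Spearman correlations were *Apoe* (0.70), *Lyz2* (0.634), *Itm2b* (0.546), *Selenop* (0.529), *Ctsb* (0.517), *Ctss* (0.491), *Fcer1g* (0.433), *Psap* (0.376), *Lgmn* (0.371), and *Cyba* (0.370). Only *Lyz2* was in both sets of 10. The second measure could use 782 genes that were present in at least 10% of these cells in every library, the first 12348. These correlations describe the cells and were not tested.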

How the data were processed

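The members and gene lists were chosen with earlier results of these data known. The authors aligned reads to mm39 with Cell Ranger in Partek Flow, counted UMIs, filtered cells, and deposited log2(CPM + 1) per cell for 12436 genes. UMIs were recovered with the commonest nonzero value of a cell read as 1 UMI, and 99.934% of 39334018 values came out whole within 0.05 UMI. Of 20269 cell columns, the first run of alphabetically ordered barcodes in each file was used (11207 cells), 9062 columns of later runs were not, and 1680 columns copy another column. That the first runs belong to their labelled condition could not be checked. Cells were clustered without the C1q genes on 20 principal components of 2000 variable genes with 15 neighbors and the Leiden method (resolution 0.3, and 1.0 within the myeloid class, best of 20 starts; scanpy 1.11.5, leidenalg 0.10.2). A class needed at least 3 markers raised 2-fold and present in 25% of cells, and subclusters were named against all cells. Levels are summed UMIs with exact Poisson intervals, ratios have exact binomial and shares Clopper-Pearson 95% intervals (scipy 1.17.1), and a count of 0 allows 3 counts. No test was run between conditions, because each has 1 library. Shares of genes and medians of lists took genes with at least 100 UMIs in the group of higher level. Where pools differ in UMIs, they lean toward genes higher in the pool with more UMIs. Named genes were the 3 chains, the members of the fixed lists with at least 100 UMIs, and the 10 genes most like C1q by each measure. Other genes, such as those that describe subclusters or the C1 partners below 100 UMIs, and the cells set apart by 10 or 20 C1q UMIs, were chosen after values were seen. Listed genes that are not in the table were not analysed here. Values of 1 listed gene are not reported here. No doublet caller was run. The code for ratios and intervals was checked on simulated counts. Alternatives covered scaling, averaging, clustering, depth, and the choice of cells.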

Additional observations from a re-analysis of the deposited data

Results flagged for a closer look

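Cell columns that stand after the first run of each file were outside the comparisons and hold C1q above that of uninjured muscle. The later runs held 6030 C1q UMIs (run 2 of the control 0 dpi file), 1663 (run 2 of control 5 dpi), 11928 (run 3 of control 14 dpi), 1692 (run 2 of hypothyroid 0 dpi), 4 (run 2 of hypothyroid 5 dpi), and 4892 (run 3 of hypothyroid 5 dpi), and their condition is not known. All 1152 columns of run 2 in the control 0 dpi file copy columns of the hypothyroid 14 dpi first run, and all 528 of run 2 in the hypothyroid 0 dpi file copy columns of the control 5 dpi first run.

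C1q in the myeloid class moved in opposite directions from 5 to 14 dpi, with a ratio of 2.26 in control and 0.905 in hypothyroid muscle. With 1 library per condition this difference was not tested, and both ratios were above 1 when log2(CPM + 1) was averaged over cells (60.4 and 2.89) or all cell columns were used (3.67 and 1.10). In macrophage-like cells the same ratio was 0.762 and 0.777.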

How the results depend on the processing

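These results rest on 1 library per condition. Ratios within macrophage-like cells depend on which cells are so named, and the 14 dpi control value rests mostly on subcluster 3. No paired analysis was possible because each group has 1 library and the results come from no test. No replicate was left out for the same reason, no ratio was formed at 0 dpi, and a choice of cells by marker UMIs gave no macrophage-like group.

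Below, class is hypothyroid over control C1q in the myeloid class (4.50 at 5 and 1.81 at 14 dpi), macrophage the same in macrophage-like cells (1.48 and 1.51), other the same in all other cells (7.94 and 1.79), time the class at 14 over 5 dpi (2.26 control, 0.905 hypothyroid), and fold the lowest class over other cells (66.2). Of 162 values under alternatives, 50 for the main comparisons and 41 for single chains and libraries stayed within the interval of the value given, 52 and 12 moved beyond it, and 4 and 3 changed direction. Averaging CPM over cells gave class 5.15 and 1.54, macrophage 1.43 and 1.34, other 5.36 at 5 dpi, time 3.17 and 0.951, and fold 96.5. Averaging log2(CPM + 1) gave class 184 and 8.82, macrophage 8.22 and 4.26, other 2.03 and 1.37, time 60.4 and 2.89 (reversed in hypothyroid), and fold 4.01. Median-ratio scaling gave class 6.09 and 1.95, macrophage 1.63 at 5 dpi, other 10.5 at 5 dpi, time 2.08 and 0.859, and fold 71.7. Without the 5% of cells with most UMIs, other was 4.80 at 5 dpi, hypothyroid time 0.940, and fold 163. Keeping the C1q genes in the clustering gave macrophage 1.42 and 1.26, 30 principal components gave macrophage 1.56 and 1.66 and other 2.07 at 14 dpi, and doubling the resolution gave class 1.99 at 14 dpi and control time 2.05. All cell columns with later runs gave class 3.27 and 0.982, macrophage 1.53 and 0.914, other 5.85 and 2.65, time 3.67 and 1.10, and fold 75.7, so that the 14 dpi ratios and hypothyroid time were reversed; the *C1qa* to *C1qb* ratio of control 5 dpi was 0.998, and the 5 dpi ratio of diets in the thinned share of class cells with a C1q UMI was 2.35 in place of 4.71. These columns mix conditions. Taking cells with UMIs of 4 or more myeloid markers as the class gave 4.32 and 1.92, other 5.80 at 5 dpi, hypothyroid time 0.963, and fold 347. Other cells without those cells gave 4.73 and 2.08, and fold 462. The 2 alternatives added after the data were seen gave macrophage 1.14 and 1.17 with *C1qc* at 0.866 at 5 dpi (first-level cluster) and 1.34 and 4.14 with *C1qc* at 0.997 (without subclusters that carried markers of another class). Depth limits statements on uninjured muscle, with 5 and 9 myeloid cells.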

Other observations

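The ratio of *C1qa* to *C1qb* UMIs, which was 1.09 in control 5 dpi macrophage-like cells and 0.628 to 0.748 in those of the other libraries after injury, can also be formed over all cells of the unused later runs. It was 0.634 (0.597 to 0.673) in run 2 of the control 0 dpi file, 0.714 (0.639 to 0.797) in run 2 of control 5 dpi, 0.719 (0.690 to 0.750) in run 3 of control 14 dpi, 1.32 (1.17 to 1.48) in run 2 of hypothyroid 0 dpi, and 1.13 (1.06 to 1.21) in run 3 of hypothyroid 5 dpi. Over all cells of the first runs it was 1.09 (1.03 to 1.17) in control 5 dpi, 0.767 (0.694 to 0.847) in control 14 dpi, 0.741 (0.726 to 0.757) in hypothyroid 5 dpi, and 0.638 (0.609 to 0.669) in hypothyroid 14 dpi muscle. No condition was read from these values.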
